A study of Mus musculus with 100 samples.

Results

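The genes described here are a set of 10 genes of blood vessel growth and of the endothelium, the cell layer that lines blood vessels, read in whole knee joints of mice after a joint injury. They are the rows of the count table that carry these 10 names, taken with no threshold on a measured value, and all 10 were present among its 17310 genes. The set holds the growth factor Vegfa and its receptors Kdr and Flt1, the junction proteins Pecam1 and Cdh5, the peptide Apln and its receptor Aplnr, and the secreted proteins Angpt2, Angptl4 and Esm1. RNA sequencing was carried out on knees of 3 mouse strains, MRL/MpJ, C57BL/6 (the substrain C57BL/6J in the methods of the study) and STR/ort. The study compared a strain known for good tissue healing (MRL/MpJ), a common laboratory strain (C57BL/6) and a strain prone to osteoarthritis (STR/ort) after rupture of the anterior cruciate ligament. At 10 weeks of age the right knee was injured by a single compressive load of 10 to 12 N, and the left knee of the injured mice served as the uninjured contralateral joint.

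The 100 libraries fell into 21 groups. At 0-day, before any injury, there were 4 libraries of each strain. At each later time (1-day, 1-week or 2-weeks after injury) there were 5 libraries of injured and 5 of uninjured joints of each strain, except that the uninjured joints at 1-week had 4 libraries in MRL/MpJ and 4 in STR/ort. The 0-day, 1-day and 1-week libraries form 1 experimental batch in the labels and the 2-weeks libraries another, so that batch and time cannot be told apart where 2-weeks is set beside the earlier times. The labels name no added allele, and all loaded mice had isoflurane anaesthesia and then buprenorphine for pain, which the 0-day mice are not said to have had. The uninjured joints therefore come from mice that went through the same procedure with 1 load on the other knee. Each library holds poly(A) RNA of a whole joint with traces of soft tissue, so that cartilage, bone, marrow, synovium, fat and muscle were all read together, and in such bulk samples fewer cells of a type and less RNA per cell cannot be told apart. Nothing in the labels names separate cultures or pools, and for the earlier times they tie an uninjured joint to an injured one by no more than a replicate number, so that p-values measure the spread between these samples.

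New vessels sprout when endothelial cells sense vascular endothelial growth factor (VEGF). Vegfa is the main ligand. Kdr (VEGF receptor 2) carries most of its signal, and Flt1 (VEGF receptor 1) binds the ligand tightly and so limits it. Apln encodes apelin, a peptide made by the leading cells of a sprout, and Aplnr is its receptor on endothelial cells. Angpt2 is a ligand of the Tie2 receptor that loosens the contacts between vessel cells, and Esm1 is a proteoglycan secreted by sprouting endothelial cells. Angptl4 is secreted by fat, muscle, endothelial and other cells, inhibits lipoprotein lipase, and is known to be induced by low oxygen, by fatty acids through PPAR receptors and by glucocorticoids. Pecam1 (CD31) and Cdh5 (VE-cadherin) sit at the contacts between endothelial cells and are used to mark them. In joints, vessels supply the synovium, bone and marrow, while healthy articular cartilage has none.

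Total counts per library ranged from 6182016 to 20986027. The 20 other endothelial markers followed beside the set (among them Emcn, Cldn5, Erg and Vwf) were detected in all groups, with 0 of 20 at 0 throughout any group. Their summed level lay between 607 and 986 CPM (counts relative to the library total after TMM scaling) over the 100 libraries. The lowest count of any of the 10 genes in any library was 11, for Apln.

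In the RefSeq annotation (GRCm38.p6) all 10 genes code for proteins. Vegfa (gene 22339) lies at chr17:46016993-46032377 and Angptl4 (57875) at chr17:33774900-33781575. The VEGF receptors share a chromosome, with Kdr (16542) at chr5:75932827-75979072 and Flt1 (14254) at chr5:147561604-147726438. Pecam1 (18613) lies at chr11:106654213-106715281, Cdh5 (12562) at chr8:104101613-104144504 and Angpt2 (11601) at chr8:18690263-18741562. Apln (30878) lies at chrX:48025146-48034853, Aplnr (23796) at chr2:85136360-85139923 and Esm1 (71690) at chr13:113209659-113218104.

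Promoter sequences from RefSeq (build GRCm38.p6) were matched for 5 of the 10 genes, namely Apln, Vegfa, Kdr, Flt1 and Esm1, while Pecam1, Cdh5, Aplnr, Angpt2 and Angptl4 are named only. They are shown because endothelial genes are commonly controlled by ETS factors, and the ETS core GGAA, or TTCC where it lies on the opposite strand, is in capitals. Each sequence is the 250 bases before a start site, read 5′ to 3′ on the strand of the gene. The Apln promoter lies at chrX:48034854-48035103 on the minus strand, that of Vegfa at chr17:46032378-46032627 (minus), that of Kdr at chr5:75978456-75978705 (minus), that of Flt1 at chr5:147726012-147726261 (minus) and that of Esm1 at chr13:113209409-113209658 (plus).
Apln: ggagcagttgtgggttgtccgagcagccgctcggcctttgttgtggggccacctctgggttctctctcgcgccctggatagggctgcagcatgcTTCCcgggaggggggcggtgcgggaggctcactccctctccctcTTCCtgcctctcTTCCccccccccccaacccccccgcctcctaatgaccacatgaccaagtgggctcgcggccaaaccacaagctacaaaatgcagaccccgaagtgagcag
Vegfa: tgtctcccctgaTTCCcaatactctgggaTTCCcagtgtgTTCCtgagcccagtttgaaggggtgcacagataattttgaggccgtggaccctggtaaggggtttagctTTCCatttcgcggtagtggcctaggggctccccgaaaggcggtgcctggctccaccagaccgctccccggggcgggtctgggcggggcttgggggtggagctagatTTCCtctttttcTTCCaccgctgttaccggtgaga
Kdr: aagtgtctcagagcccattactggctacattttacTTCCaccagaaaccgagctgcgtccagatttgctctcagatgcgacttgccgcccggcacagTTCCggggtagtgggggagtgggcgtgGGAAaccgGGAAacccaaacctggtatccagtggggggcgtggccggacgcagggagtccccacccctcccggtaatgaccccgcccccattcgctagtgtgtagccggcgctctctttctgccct
Flt1: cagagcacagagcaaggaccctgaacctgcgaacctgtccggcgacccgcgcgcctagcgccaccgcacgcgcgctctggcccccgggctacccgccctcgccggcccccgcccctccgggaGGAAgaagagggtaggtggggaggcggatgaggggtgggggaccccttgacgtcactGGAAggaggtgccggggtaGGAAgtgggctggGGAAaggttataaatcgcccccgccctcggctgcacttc
Esm1: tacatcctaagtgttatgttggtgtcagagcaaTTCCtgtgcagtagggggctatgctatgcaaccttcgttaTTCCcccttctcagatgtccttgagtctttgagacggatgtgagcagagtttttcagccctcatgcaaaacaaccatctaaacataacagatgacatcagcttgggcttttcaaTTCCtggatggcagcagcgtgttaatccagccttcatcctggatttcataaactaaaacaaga
The core was found 3 times in the Apln and Esm1 windows, 4 times in those of Kdr and Flt1, and 6 times in that of Vegfa. The ETS core occurred in 93.4% of 32851 promoter windows of 27025 genes, with a median of 3 matches, and 8.69% of the windows held at least 6. The core of the hypoxia response element, ACGTG on either strand, was found in 0 of the 5 windows shown and in 16.6% of all windows. A second Vegfa start site (chr17:46025164-46025413, minus) held 2 ETS cores and 1 ACGTG. The GC content was 65.2% for Apln, 70.4% for Flt1 and 44.0% for Esm1. These matches describe letters and not binding, and no match says only that the letters are not in this window.

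The levels of the genes differed widely in range over the 21 groups. To compare genes, CPM were divided by the exonic length of the gene in the annotation, and on this scale (median over the 100 libraries, CPM per kb) Vegfa stood at 41.3, Pecam1 at 24.0, Cdh5 at 18.1, Kdr at 11.7, Angptl4 at 8.19, Esm1 at 7.997, Aplnr at 6.37, Flt1 at 4.9996, Angpt2 at 2.57 and Apln at 1.46. The group means of Angptl4 spanned the widest range, from 17.2 CPM in uninjured MRL/MpJ joints at 1-week to 197 CPM in injured STR/ort joints at 1-week, a ratio of 11.5. Apln ranged from 2.22 to 13.7 CPM (ratio 6.15), Angpt2 from 5.29 to 20.6 CPM (3.90) and Aplnr from 12.6 to 40.3 CPM (3.19), each highest in the same injured STR/ort joints at 1-week. Vegfa went the other way, with its highest mean in STR/ort at 0-day (213 CPM) and its lowest in injured STR/ort joints at 1-day (74.5 CPM), a ratio of 2.86. The receptors and junction genes were steadier, with ratios of 1.54 for Flt1, 1.62 for Kdr, 1.77 for Cdh5 and 1.955 for Pecam1, and Esm1 had a ratio of 2.44. Within groups the median coefficient of variation was lowest for Pecam1 (5.84%) and highest for Apln (20.5%), the gene with the fewest counts, and it was 17.3% for Angptl4 and 12.0% for Vegfa.

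**Figure D1:**
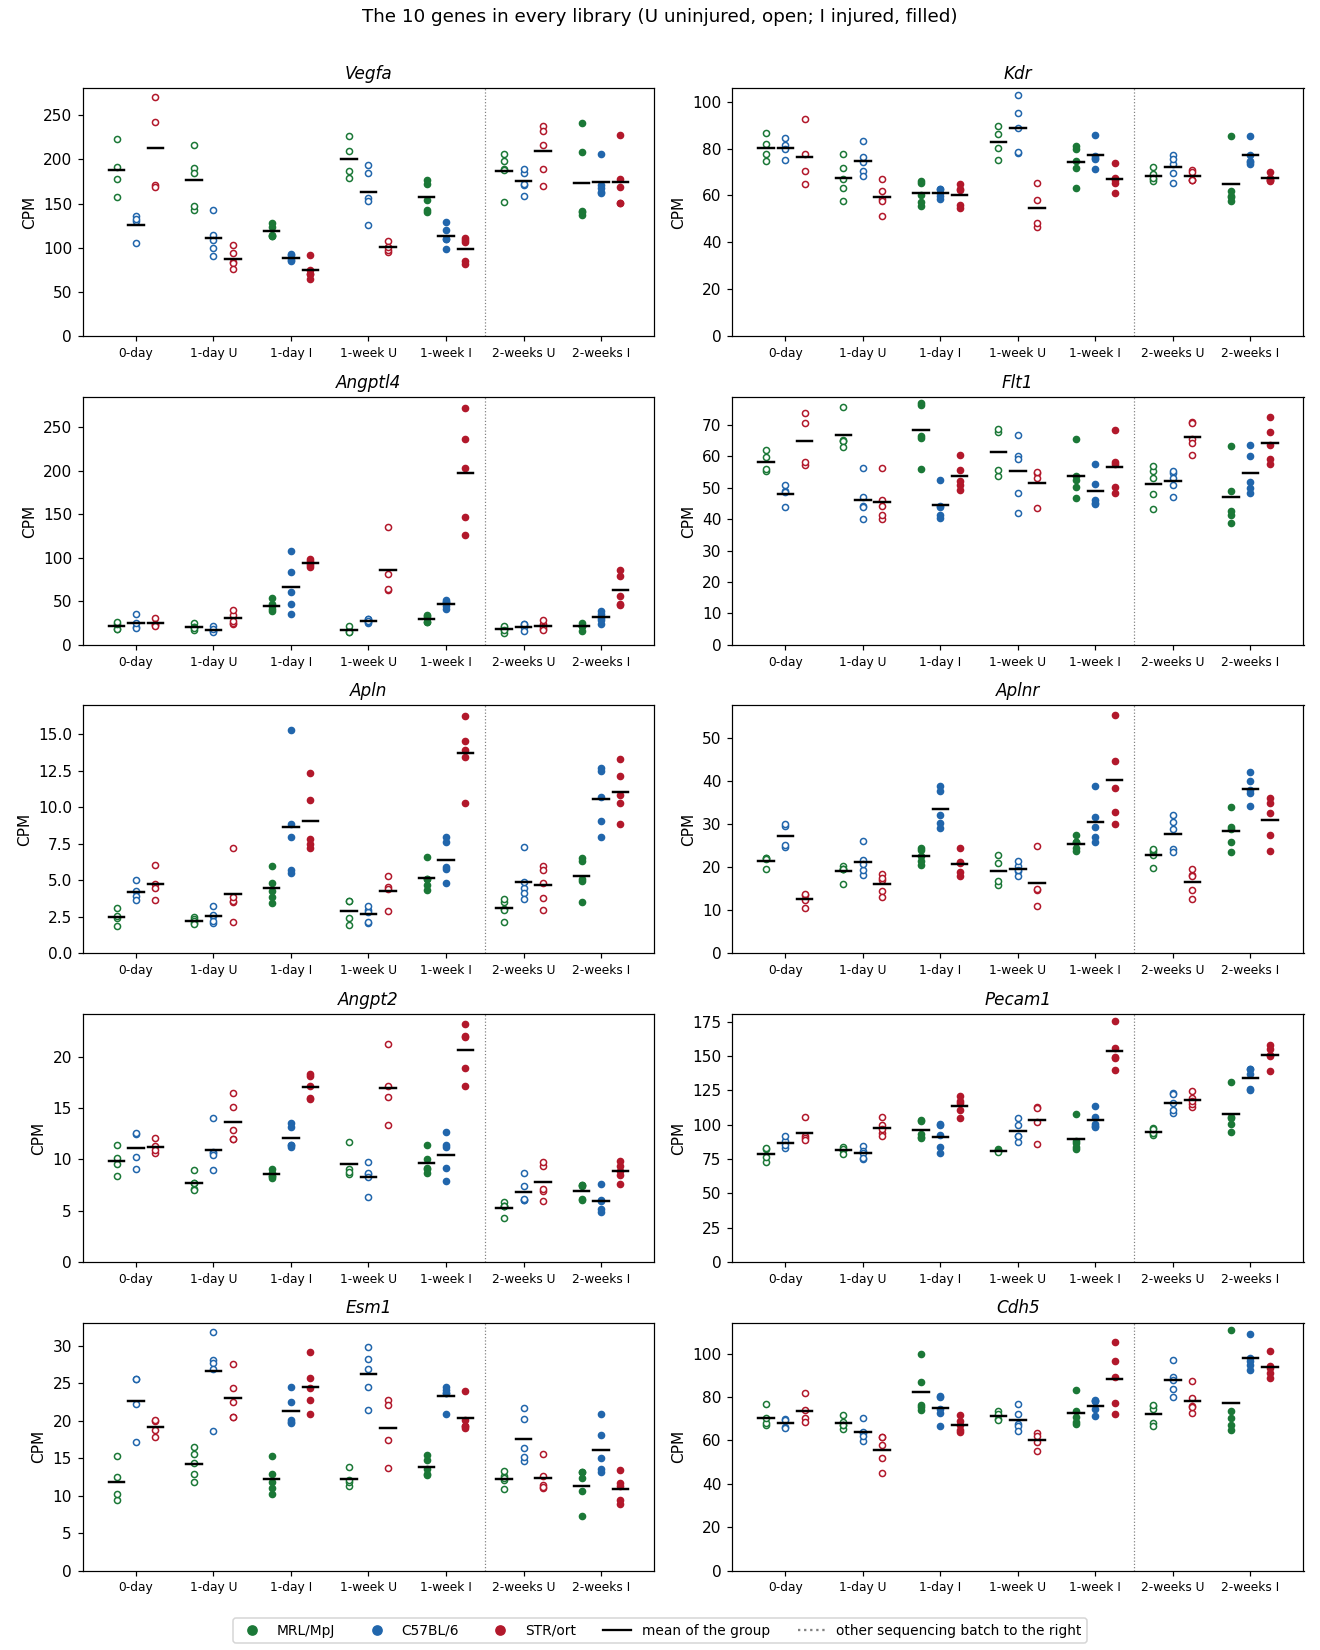
Level of each of the 10 genes in every library (CPM with TMM scaling, vertical axis from 0) by strain, time and joint. Open points are 0-day and uninjured joints, filled points are injured joints, black bars are group means, and the dotted line sets off the 2-weeks batch. Angptl4, Apln and Aplnr reach their highest means in injured STR/ort joints at 1-week (197, 13.7 and 40.3 CPM), and Vegfa its highest in STR/ort at 0-day (213 CPM).

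Before injury the strains differed in Apln, Aplnr, Esm1 and Vegfa. A gene was called at an adjusted p below 0.05 over all genes and a fold change above 1.5. In STR/ort against MRL/MpJ 3 of the 10 genes were called, where 14.8% of all genes were. In STR/ort against C57BL/6 2 were called (13.8% of all genes), and in C57BL/6 against MRL/MpJ 2 (15.9%). These 3 comparisons share groups, so each stands for itself. Values after ± are standard errors of log2 fold changes throughout.

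The apelin receptor Aplnr was lowest in STR/ort. It measured 13.6, 13.9, 12.3 and 10.7 CPM in STR/ort, 22.2, 22.2, 21.9 and 19.7 CPM in MRL/MpJ and 24.6, 29.5, 25.1 and 30.04 CPM in C57BL/6. All 4 STR/ort libraries were below all libraries of both other strains. The log2 fold change of STR/ort was -1.15 ± 0.10 against C57BL/6 (adjusted p = 1.48e-07, 2.22-fold lower) and -0.76 ± 0.11 against MRL/MpJ (adjusted p = 2.58e-05). The ligand Apln was lowest in MRL/MpJ, at 2.396, 3.14, 2.58 and 1.897 CPM, against 4.25, 3.94, 3.65 and 5.01 CPM in C57BL/6 and 4.76, 3.67, 4.49 and 6.01 CPM in STR/ort. The MRL/MpJ libraries lay below all others, with log2 fold changes of 0.90 ± 0.21 for STR/ort (adjusted p = 0.00261) and 0.77 ± 0.21 for C57BL/6 (adjusted p = 0.00725) against that strain.

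Esm1 was likewise lowest in MRL/MpJ, at 12.5, 15.3, 9.47 and 10.2 CPM. It measured 25.6, 22.3, 25.6 and 17.1 CPM in C57BL/6 and 19.9, 20.1, 17.9 and 18.8 CPM in STR/ort. No MRL/MpJ library reached the lowest of the other strains, and the log2 fold change was 0.95 ± 0.14 for C57BL/6 (adjusted p = 3.9e-05) and 0.67 ± 0.15 for STR/ort (adjusted p = 0.00148). Vegfa was lowest in C57BL/6, with 130.1, 136, 133 and 106 CPM, against 171, 169, 270.01 and 242 CPM in STR/ort and 178, 158, 223 and 192 CPM in MRL/MpJ. The C57BL/6 libraries lay below those of both other strains. STR/ort exceeded C57BL/6 by a log2 fold change of 0.71 ± 0.14 (adjusted p = 0.000574), which was no longer called without STR/ort replicate 3 (0.58, under the 1.5-fold limit). It also ended with 1 or 2 RUVg factors, which model unwanted variation from housekeeping genes (0.30, adjusted p = 0.0705, and 0.37, adjusted p = 0.304). C57BL/6 against MRL/MpJ gave -0.53 ± 0.14 (adjusted p = 0.00598, under the fold limit, but called at -0.64 without MRL/MpJ replicate 2). With 2 RUVg factors the Apln difference of C57BL/6 and MRL/MpJ was 1.01 (adjusted p = 0.494) and not called. Esm1 in STR/ort against C57BL/6 was called there (-0.84, adjusted p = 0.0436). The 10 skeletal muscle markers, which share the joint sample with the vessels, moved with Vegfa: 9 of 10 were higher in STR/ort than in C57BL/6 and 10 of 10 lower in C57BL/6 than in MRL/MpJ. Their summed level was 33669.5 to 54266.6 CPM in C57BL/6, 77822 to 88152.6 CPM in STR/ort and 73244.8 to 89163.5 CPM in MRL/MpJ. In a fit with the muscle level as a covariate, added after the data were seen, the Vegfa difference between STR/ort and C57BL/6 was 0.14 (adjusted p = 0.926). The Aplnr difference was -0.81 in that fit (adjusted p = 0.0587), and the Apln difference between C57BL/6 and MRL/MpJ 0.51 (adjusted p = 0.671). The muscle range of C57BL/6 did not overlap those of the other strains, so the fit cannot tell muscle level from strain here.

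Kdr, Flt1, Pecam1, Cdh5, Angpt2 and Angptl4 passed the test between no pair of strains at 0-day. Of these, Flt1 was 0.39 ± 0.09 in STR/ort against C57BL/6 (adjusted p = 0.00151) and Pecam1 0.26 ± 0.07 in STR/ort against MRL/MpJ (adjusted p = 0.0101), both below the 1.5-fold limit. Angptl4, which differed most between strains later, had log2 differences of at most 0.27 at 0-day, with overlapping libraries in every pair.

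Injury raised Apln, Angptl4 and Aplnr, while the VEGF ligand, its receptors, Angpt2, Esm1 and the junction genes were not called. At 1-day 2 of the 10 genes were called in MRL/MpJ, where 2.02% of all genes were, 3 in C57BL/6 (5.6%) and 2 in STR/ort (4.31%). At 1-week 2 were called in MRL/MpJ (3.13%), 3 in C57BL/6 (5.82%) and 3 in STR/ort (9.21%). At 2-weeks 1 was called in MRL/MpJ (1.16%), 2 in C57BL/6 (2.95%) and 3 in STR/ort (4.66%). Over the 9 comparisons of injured with uninjured joints that made 21 of 90 tests, all 21 with the higher level in the injured joint. The calls fell on Apln in 9 of 9 comparisons, Angptl4 in 8 and Aplnr in 4. The median log2 fold change of the 10 genes lay between 0.12 and 0.41, beside a median of all genes between -0.03 and 0.01.

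**Figure D2:**
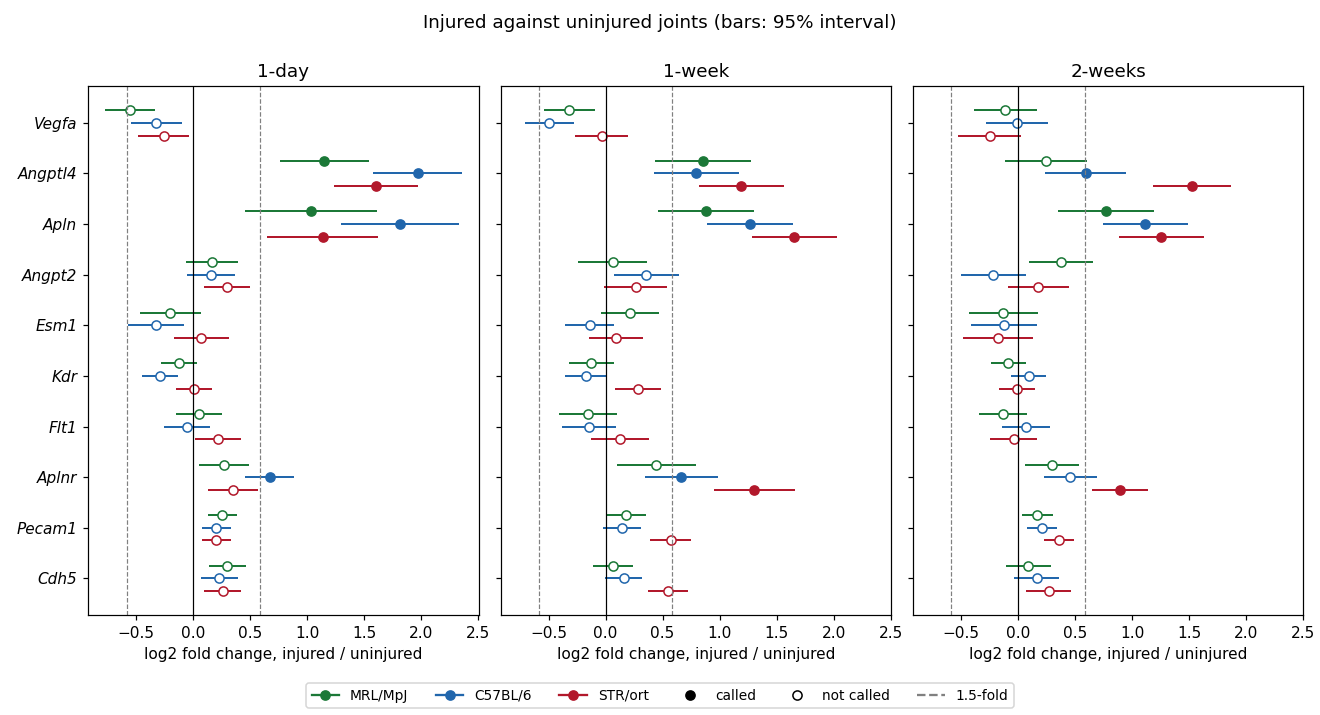
Log2 fold change of injured against uninjured joints for each of the 10 genes (horizontal axis) in each strain, with 1 panel per time. Lines are 95% intervals, filled points passed the test, and dashed lines mark a 1.5-fold change. Apln is filled in all 9 comparisons and Angptl4 in 8, and the 9 Vegfa points lie below 0.

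Apln, the sprout-leading peptide, was higher in injured joints of every strain at every time. At 1-day MRL/MpJ joints measured 3.46, 4.24, 3.89, 4.83 and 5.95 CPM when injured and 2.47, 2.06, 2.34, 2.198 and 2.05 CPM when uninjured. C57BL/6 joints measured 8.85, 5.69, 5.52, 15.3 and 7.97 CPM and 3.26, 2.58, 2.08, 2.25 and 2.63 CPM. STR/ort joints measured 10.5, 12.3, 7.17, 7.46 and 7.84 CPM and 3.54, 7.18, 2.15, 3.56 and 3.87 CPM. The injured and uninjured libraries were apart in MRL/MpJ and C57BL/6, and in STR/ort uninjured replicate 2 reached the lowest injured library. The log2 fold changes were 1.03 ± 0.29 (adjusted p = 0.0346), 1.82 ± 0.26 (adjusted p = 5.16e-06) and 1.14 ± 0.24 (adjusted p = 0.00193). The MRL/MpJ call at 1-day was not stable. It ended without any 1 of injured replicates 2, 4 or 5 (adjusted p = 0.0724, 0.0742 and 0.0825) or of uninjured replicates 1 to 5 (adjusted p = 0.0595, 0.0811, 0.0701, 0.0707 and 0.0827), and with the muscle covariate (adjusted p = 0.0546).

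At 1-week the Apln increase was largest in STR/ort, where injured joints measured 14.5, 13.4, 13.9, 10.3 and 16.2 CPM and uninjured joints 4.52, 2.901, 4.44 and 5.29 CPM. C57BL/6 joints measured 7.93, 4.81, 5.79, 5.92 and 7.59 CPM when injured and 3.002, 2.101, 2.86, 3.24 and 2.16 CPM when uninjured. MRL/MpJ joints measured 5.09, 5.100, 6.59, 4.32 and 4.68 CPM and 3.62, 3.61, 1.91 and 2.45 CPM. Every injured library lay above every uninjured library of its strain. The log2 fold changes were 1.66 ± 0.18 in STR/ort (adjusted p = 1.14e-07), 1.27 ± 0.19 in C57BL/6 (adjusted p = 1.57e-05) and 0.88 ± 0.21 in MRL/MpJ (adjusted p = 0.0088). Without MRL/MpJ uninjured replicate 3 the last was 0.72 (adjusted p = 0.0678).

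At 2-weeks Apln was still higher in injured joints. The injured and uninjured libraries measured 10.8, 12.1, 10.3, 8.82 and 13.3 CPM and 5.99, 5.74, 2.95, 4.79 and 3.79 CPM in STR/ort. They measured 12.5, 7.94, 10.7, 12.7 and 9.05 CPM and 4.49, 4.88, 4.16, 7.25 and 3.69 CPM in C57BL/6. In MRL/MpJ they were 5.12, 6.32, 3.52, 6.55 and 4.92 CPM and 3.49, 3.04, 3.74, 2.18 and 2.99 CPM. The libraries overlapped in MRL/MpJ, where injured replicate 3 was below uninjured replicate 3, and not in the other strains. The log2 fold change was 1.26 ± 0.18 in STR/ort (adjusted p = 7.11e-06) and 1.12 ± 0.19 in C57BL/6 (adjusted p = 9.37e-05). In MRL/MpJ it was 0.77 ± 0.21 (adjusted p = 0.0488), and with each pair of joints of 1 animal as a block 0.76 (adjusted p = 0.0712). That call also ended without MRL/MpJ injured replicates 1, 2, 4 or 5 (adjusted p = 0.0751, 0.158, 0.101 and 0.0751) or uninjured replicates 2, 3, 4 or 5 (adjusted p = 0.105, 0.0511, 0.19 and 0.117).

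Aplnr, the receptor of apelin, had a higher mean in injured joints in 9 of 9 comparisons and passed the test in 4. In C57BL/6 at 1-day it measured 38.9, 32.2, 30.3, 37.7 and 29.2 CPM in injured and 26.2, 21.8, 18.2, 19.3 and 20.8 CPM in uninjured joints. At 1-week the C57BL/6 values were 31.7, 29.4, 27.1, 25.9 and 38.9 CPM and 19.2, 20.2, 21.5, 18.1 and 19.5 CPM. In both, all injured libraries exceeded all uninjured ones, with log2 fold changes of 0.67 ± 0.10 (adjusted p = 1.87e-05) at 1-day and 0.66 ± 0.16 (adjusted p = 0.00449) at 1-week. The latter fell under the fold limit without C57BL/6 injured replicate 5 (0.56, adjusted p = 0.0304).

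In STR/ort Aplnr was called at 1-week and at 2-weeks. At 1-week injured joints measured 55.4, 44.7, 38.5, 32.8 and 29.97 CPM and uninjured joints 24.9, 14.6, 10.9 and 15.1 CPM, and at 2-weeks 34.9, 32.7, 23.7, 27.4 and 36.2 CPM and 18.3, 18.1, 12.5, 19.6 and 14.8 CPM. The groups did not overlap at either time, and the log2 fold changes were 1.305 ± 0.18 (adjusted p = 2.45e-06, 2.47-fold) and 0.90 ± 0.12 (adjusted p = 1.69e-06). At 1-day the STR/ort value was 0.35 ± 0.11 (adjusted p = 0.033, under the fold limit). In MRL/MpJ the log2 fold changes were 0.27, 0.44 and 0.30 at the 3 times, with adjusted p of 0.186, 0.184 and 0.363.

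Angptl4, the inhibitor of lipoprotein lipase, rose in all strains at 1-day. MRL/MpJ joints measured 44.8, 53.8, 38.6, 46.5 and 40.98 CPM when injured and 25.04, 20.4, 17.3, 20.1 and 19.9 CPM when uninjured. C57BL/6 joints measured 83.9, 35.4, 60.6, 108 and 46.8 CPM and 21.6, 15.7, 17.1, 14.4 and 17.7 CPM. STR/ort joints measured 91.4, 93.7, 89.3, 99.1 and 96.1 CPM and 34.8, 39.98, 24.4, 25.3 and 27.9 CPM. No injured library overlapped an uninjured one, the injured C57BL/6 libraries were widely spread, and the injured STR/ort libraries lay close together. The log2 fold changes were 1.15 ± 0.19 in MRL/MpJ (adjusted p = 0.000224), 1.97 ± 0.19 in C57BL/6 (adjusted p = 7.86e-09) and 1.603 ± 0.18 in STR/ort (adjusted p = 2.43e-07).

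At 1-week Angptl4 was far higher in STR/ort than in the other strains, in injured and uninjured joints alike. Injured STR/ort joints measured 272, 236, 203, 126 and 147 CPM and uninjured ones 136, 81.4, 63.2 and 63.9 CPM. Injured C57BL/6 joints measured 51.7, 48.8, 49.5, 45.2 and 41.5 CPM and uninjured ones 29.4, 24.7, 30.1, 26.6 and 27.5 CPM. Injured MRL/MpJ joints measured 26.4, 33.3, 30.9, 34.3 and 26.2 CPM and uninjured ones 17.2, 21.3, 15.2 and 14.9 CPM. In STR/ort uninjured replicate 1 lay above injured replicate 4, and in the other strains the groups were apart. The injury effect was 1.19 ± 0.19 in STR/ort (adjusted p = 2.02e-05), 0.80 ± 0.18 in C57BL/6 (adjusted p = 0.00308) and 0.85 ± 0.21 in MRL/MpJ (adjusted p = 0.0111). Without MRL/MpJ uninjured replicate 3 the last was 0.80 (adjusted p = 0.0522), and with 2 RUVg factors it was 0.83 (adjusted p = 0.0706).

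At 2-weeks the Angptl4 effect had its highest value in STR/ort. STR/ort joints measured 45.7, 55.9, 47.3, 78.7 and 86.3 CPM when injured and 17.8, 24.2, 20.6, 28.3 and 17.7 CPM when uninjured. C57BL/6 joints measured 38.7, 28.7, 31.01, 35.8 and 23.8 CPM and 21.5, 24.1, 20.1, 24.1 and 15.5 CPM. MRL/MpJ joints measured 21.97, 21.99, 16.5, 25.6 and 21.98 CPM and 16.7, 13.98, 20.8, 21.9 and 17.3 CPM. The groups were apart in STR/ort and overlapped in the other 2 strains. The log2 fold change was 1.53 ± 0.17 in STR/ort (adjusted p = 6.24e-08, 2.88-fold) and 0.24 ± 0.18 in MRL/MpJ (adjusted p = 0.959). In C57BL/6 it was 0.59 ± 0.18 (adjusted p = 0.0313), at the fold limit of 0.585. That call ended with the joints of 1 animal as a block (0.58, adjusted p = 0.00933) and without C57BL/6 injured replicates 1, 3 or 4 (adjusted p = 0.109, 0.0513 and 0.0921) or uninjured replicates 1, 3 or 5 (adjusted p = 0.0579, 0.064 and 0.1). It fell under the fold limit with RLE factors (0.58) and with DESeq2 (0.57) as well.

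The strain difference in the Angptl4 response was tested as an interaction. At 2-weeks the STR/ort response exceeded that of MRL/MpJ by 1.28 ± 0.25 on the log2 scale (95% interval 0.80 to 1.77, adjusted p = 0.0139). It was the only call among the 90 interaction tests of the 10 genes, beside 0.451% of all genes in that comparison, and it remained a call without any 1 library. With the joints of 1 animal as a block the difference was 1.27 (adjusted p = 0.00569). Apart from this gene, edgeR called 0 of the 10 genes in the other 8 comparisons of injury responses, where 23 of 90 interaction tests in all had an unadjusted p below 0.05 and DESeq2 called 2, which were this gene and the Aplnr value at 1-week given next. The share of all genes called was 0.162% for STR/ort against MRL/MpJ, 2.66% for STR/ort against C57BL/6 and 0.318% for C57BL/6 against MRL/MpJ at 1-day. It was 0.884%, 0.491% and 0% in the same order at 1-week. At 2-weeks it was 0.0462% for STR/ort against C57BL/6 and 0% for C57BL/6 against MRL/MpJ. Differences of response short of the call included those of Angptl4 at 2-weeks for STR/ort against C57BL/6 (0.93 ± 0.24, adjusted p = 0.245), of Aplnr at 1-week (0.86 ± 0.25 for STR/ort against MRL/MpJ, adjusted p = 0.0833) and of Cdh5 (0.48 ± 0.12, adjusted p = 0.0402, under the fold limit). Under the fold limit at 1-week for STR/ort against C57BL/6 were Pecam1 (0.42, adjusted p = 0.0933), Kdr (0.46, adjusted p = 0.121), Cdh5 (0.39, adjusted p = 0.129) and Vegfa (0.46, adjusted p = 0.19). The Aplnr value became a call with DESeq2 (adjusted p = 0.0405) and without STR/ort injured replicate 5 (0.95, adjusted p = 0.0413) or uninjured replicate 1 (1.13, adjusted p = 0.00886). Against C57BL/6 the Aplnr difference at 1-week was 0.64 ± 0.24 (adjusted p = 0.249). Leaving out STR/ort uninjured replicate 1 made it 0.91 (adjusted p = 0.0459). With the replicate numbers as a block both 1-week differences were called, at 0.95 against MRL/MpJ (adjusted p = 0.00764) and 0.76 against C57BL/6 (adjusted p = 0.0196). The labels do not say that these numbers pair the joints of 1 animal at 1-week. At 2-weeks the Aplnr response of STR/ort exceeded that of MRL/MpJ by 0.60 ± 0.17 (adjusted p = 0.0961), which was called with the joints of 1 animal as a block (0.61, adjusted p = 0.032) and without MRL/MpJ injured replicate 4 (0.63, adjusted p = 0.0352) or STR/ort injured replicate 3 (0.68, adjusted p = 0.0224). Without C57BL/6 injured replicate 2 the Angptl4 response of C57BL/6 at 1-day exceeded that of MRL/MpJ by 0.97 (adjusted p = 0.0397), which was not called with all libraries.

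The VEGF ligand was not among the genes that rose. Vegfa had a lower mean in injured joints in 9 of 9 comparisons, and edgeR called it in 0 of them, with an unadjusted p below 0.05 in 5 and 0 calls by DESeq2. The largest difference was at 1-day in MRL/MpJ, where injured joints measured 115, 123, 114, 114 and 128 CPM and uninjured joints 191, 217, 185, 143 and 148 CPM. All injured libraries lay below all uninjured ones, and the log2 fold change was -0.55 ± 0.11 (adjusted p = 0.0015, 1.47-fold lower, under the 1.5-fold limit). It passed that limit without MRL/MpJ injured replicate 5 (-0.59), uninjured replicate 4 (-0.63) or uninjured replicate 5 (-0.62). In C57BL/6 at 1-week Vegfa measured 110.4, 110.03, 98.2, 129 and 119.9 CPM in injured and 156, 184, 193, 153 and 126 CPM in uninjured joints, with overlap and a log2 fold change of -0.49 ± 0.10 (adjusted p = 0.00136). Of the other 11 VEGF and angiopoietin ligands and receptors, Vegfd (a ligand that mainly acts on lymphatic vessels) rose in C57BL/6 by 1.47 at 1-day and 0.83 at 1-week. Vegfb, a ligand of Flt1, fell by 0.59 on the log2 scale in C57BL/6 at 1-week. No further call was made in this list in any of the 9 comparisons.

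The VEGF receptors moved little. Kdr had log2 fold changes from -0.29 in C57BL/6 at 1-day (adjusted p = 0.00689) to 0.28 in STR/ort at 1-week (adjusted p = 0.0401), and edgeR and DESeq2 both called it in 0 of 9 comparisons, with an unadjusted p below 0.05 in 2. Flt1 lay between -0.16 and 0.22, with 0 calls by either tool and an unadjusted p below 0.05 in 1 of 9. Angpt2 ranged from -0.22 to 0.38 and was higher in the mean in 8 of 9 comparisons, with 0 calls by either tool and 3 unadjusted p below 0.05. Esm1 ranged from -0.33 to 0.21, also with 0 calls by either tool and 1 unadjusted p below 0.05. In the list of 10 Notch and ephrin genes that pattern vessels, Ephb4, a receptor of the venous side, rose by 0.59 in C57BL/6 at 1-week, and Dll4, the Notch ligand of leading sprout cells, by 0.73 in STR/ort at 1-week, where 2 of 10 passed the test. No member of that list passed in the other 7 comparisons.

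The junction genes were higher in the mean in injured joints, under the 1.5-fold limit. Pecam1 and Cdh5 each had a higher mean in 9 of 9 comparisons, with an unadjusted p below 0.05 in 8 and in 5, and 0 calls each by edgeR and by DESeq2. At 1-week Pecam1 measured 175, 149, 156, 149 and 139.8 CPM in injured STR/ort joints and 113, 102, 86.2 and 112 CPM in uninjured ones. Cdh5 measured 106, 96.6, 72.00, 89.2 and 77.1 CPM and 63.4, 59.4, 54.9 and 62.1 CPM. Both genes separated the groups without overlap. The log2 fold changes were 0.57 ± 0.09 for Pecam1 (adjusted p = 1.22e-05, 1.48-fold) and 0.55 ± 0.09 for Cdh5 (adjusted p = 2.24e-05, 1.46-fold), just under the 1.5-fold limit. With the replicate numbers as a block, which are not said to pair joints at 1-week, Pecam1 was 0.61 (adjusted p = 8.39e-06) and passed. Pecam1 also passed without STR/ort injured replicate 5 (0.60), uninjured replicate 1 (0.62) or uninjured replicate 4 (0.61), and Cdh5 without injured replicate 3 (0.61) or 5 (0.59). With the muscle covariate both were called (0.68 for Pecam1 and 0.62 for Cdh5). Pecam1 was also called with 1 RUVg factor (0.62) and with housekeeping scaling (0.597), and Cdh5 with 2 RUVg factors (0.64).

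A list of 20 other endothelial markers was followed beside the set, and whether its counts differ between strains was not tested. In STR/ort 3 of 20 passed the test at 1-week and 4 of 20 at 2-weeks, all higher in injured joints, against 1 of 20 in each strain at 1-day and 0 of 20 in MRL/MpJ and C57BL/6 at the later times. The share of all genes called was also largest in STR/ort at the later times (9.21% at 1-week and 4.66% at 2-weeks, as given above), and 1 gene of 20 stands beside 2.02% to 5.6% of all genes at 1-day. Ecscr, an endothelial surface protein that modulates VEGF signalling, was the one that passed at 1-day, with log2 fold changes of 0.59 in MRL/MpJ, 0.77 in C57BL/6 and 0.90 in STR/ort. It stood at 1.02 in STR/ort at 1-week and 0.96 at 2-weeks. The median of the 20 markers was 0.35 in STR/ort at 1-week and 0.19 at 2-weeks. Their summed level in STR/ort at 1-week was 830 to 986 CPM in injured and 730 to 800 CPM in uninjured joints without overlap. The pericyte and smooth muscle list, cells that surround vessels, had 4 of 10 called in STR/ort at 1-week, all higher, led by Acta2 (1.27), and 2 of 10 in C57BL/6, led by Cspg4 (0.90).

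Of 12 genes that restrain vessel growth or build the vessel matrix, between 1 and 7 passed the test in each injury comparison. At 1-day the number was 2 in MRL/MpJ, 4 in C57BL/6 and 1 in STR/ort. At 1-week it was 5, 6 and 6, and at 2-weeks 2, 4 and 7 in the same order, all of them higher in injured joints, with 0 lower in any comparison. Col18a1, the basement membrane collagen whose fragment is endostatin, rose in 8 of 9 comparisons by 0.86 to 1.64, and Thbs2, a secreted inhibitor of vessel growth, by up to 2.52 in STR/ort at 1-week. Among 6 lymphatic markers Pdpn, which synovial fibroblasts also carry, rose in 9 of 9 comparisons by 1.09 to 2.09, and Lyve1, which marks lymphatic endothelium and some macrophages, fell by 1.19 on the log2 scale in STR/ort at 1-week.

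Lists of hypoxia-responsive and PPAR-responsive genes were followed beside the set. Of 12 hypoxia-responsive genes, at most 1 was higher in any injury comparison. The genes were Adm, a vasoactive peptide (0.81 and 0.83 in MRL/MpJ at 1-day and 1-week, 0.74 in STR/ort at 2-weeks), and Slc2a1, a glucose transporter (0.80 in C57BL/6 and 0.63 in STR/ort at 1-day, 0.59 in STR/ort at 1-week). Car9, a carbonic anhydrase, fell by 0.83 on the log2 scale in C57BL/6 at 1-day, and so did Egln3, an oxygen-sensing enzyme, at 1-week. Of 8 PPAR-responsive lipid genes, 2 were higher in STR/ort at 1-day, and 0 in MRL/MpJ at 1-day or in any strain at 1-week or 2-weeks. These 2 were Pdk4 (1.499), a kinase that turns off pyruvate dehydrogenase, and Plin2 (0.62), a coat protein of lipid droplets, and Pdk4 was also higher in C57BL/6 at 1-day (0.898). Fabp3, a fatty acid carrier of muscle, fell by 0.98 on the log2 scale in C57BL/6 at 1-week. Of 10 fat markers 0 were higher in injured joints in any comparison, and the number lower was 1, 3 and 5 in MRL/MpJ, C57BL/6 and STR/ort at 1-day, 0, 5 and 5 at 1-week, and 0 in each strain at 2-weeks. Pck1, an enzyme of glyceride and glucose synthesis (-1.75 in STR/ort at 1-day), and Retn, the hormone resistin (-1.47 in C57BL/6 at 1-week), fell most. The summed level of fat markers at 1-week was 732 to 968 CPM in injured and 721 to 1178 CPM in uninjured STR/ort joints, and no fat marker was at 0 in any group. Muscle markers were lower in injured STR/ort joints in 5 of 10 at 1-day and 7 of 10 at 1-week, and in 4 of 10 in C57BL/6 at 1-week, where Myh2, a myosin heavy chain, fell most (-1.63). At 1-day 1 of 10 was lower in C57BL/6 and 1 higher (Myh1, 0.76), and in the other comparisons 0 were called. With the muscle level as a covariate the 1-week responses in STR/ort were 1.43 for Apln (adjusted p = 1.14e-05), 1.23 for Aplnr (adjusted p = 5.34e-05) and 1.09 for Angptl4 (adjusted p = 0.000565).

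Markers of other cell types of the joint also moved with injury. Of 6 synovial lining and fibroblast markers, between 1 and 5 were higher in each of the 9 comparisons, led in 8 of them by Has1, a hyaluronan synthase, with up to 2.55 in MRL/MpJ at 1-week. Clic5 of that list was lower in 4 comparisons (-1.53 in STR/ort at 1-week). Of 6 cartilage markers, Cytl1 was lower in 8 of 9 comparisons (-1.77 in STR/ort at 1-week), and between 1 and 3 others were higher at 1-week and 2-weeks, among them Acan, the main cartilage proteoglycan (0.98 in STR/ort at 1-week). In STR/ort at 1-week 3 of 6 bone markers were lower, led by Bglap, the bone protein osteocalcin (-1.31), as were 4 of 6 platelet markers (Gp6, -0.75), 2 of 6 neutrophil markers (Camp, -0.5995) and 1 of 6 macrophage markers (Cd163, -0.63). In the other 8 comparisons these 4 lists had at most 1 call each. Erythroid markers, of which 3 of 6 were listed in the counts, had 0 calls. The part of these cell types in the changes of the 10 genes was not tested.

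Strains were next compared within injured joints. At 1-day 5 of the 10 genes were called in STR/ort against MRL/MpJ (20.3% of all genes), 1 in STR/ort against C57BL/6 (12.4%) and 5 in C57BL/6 against MRL/MpJ (16.3%). At 1-week the counts were 6 (29.5%), 3 (25.1%) and 2 (9.47%), and at 2-weeks 2 (18.9%), 1 (10.4%) and 1 (11.5%). In all 26 of 90 tests were called, 22 higher and 4 lower in the first strain named. With 2 RUVg factors from housekeeping genes 22 tests were called, 21 higher and 1 lower, and 19 of these were among the 26. Within uninjured joints the counts at 1-day were 5 in STR/ort against MRL/MpJ (22.6%), 1 in STR/ort against C57BL/6 (10.5%) and 2 in C57BL/6 against MRL/MpJ (14.8%). At 1-week they were 5 (24.4%), 5 (22.2%) and 2 (8.53%). At 2-weeks edgeR called 0 in STR/ort against MRL/MpJ (13.8%), where 5 had an unadjusted p below 0.05 and DESeq2 called 1, and it called 1 in STR/ort against C57BL/6 (9.78%) and 1 in C57BL/6 against MRL/MpJ (9.83%). In uninjured joints 22 of 90 tests were called in all, 16 higher and 6 lower. With 2 RUVg factors 11 were called, 9 higher and 2 lower, and 9 of these 11 were among the 22. The 3 strain comparisons of a time share their groups, and the shares of the 10 genes are read beside the wide background of strain differences.

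Angptl4 gave the largest strain difference of the set. In injured joints at 1-week, with the libraries given above, STR/ort exceeded MRL/MpJ by 2.69 ± 0.18 (adjusted p = 1.1e-12, 6.44-fold) and C57BL/6 by 2.04 ± 0.18 (adjusted p = 2.36e-10, 4.11-fold). In uninjured joints of that time the differences were 2.35 ± 0.22 (adjusted p = 6.4e-10, 5.09-fold) and 1.65 ± 0.19 (adjusted p = 5.11e-08). In each joint the lowest STR/ort library lay above the highest library of the other strains in the same joint. At 2-weeks the strain difference remained in injured joints, at 1.54 ± 0.17 against MRL/MpJ (adjusted p = 7.42e-09) and 0.99 ± 0.16 against C57BL/6 (adjusted p = 2.58e-05). In the uninjured joints at 2-weeks it was 0.26 ± 0.18 (adjusted p = 0.293) and 0.05 ± 0.18 (adjusted p = 0.868). Libraries overlapped in both. At 1-day STR/ort exceeded MRL/MpJ by 1.07 ± 0.18 in injured joints (adjusted p = 1.32e-05) and C57BL/6 by 0.84 ± 0.20 in uninjured joints (adjusted p = 0.00155).

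The 1-week joints of STR/ort, where Angptl4, Apln, Aplnr and Angpt2 had high levels, also differed from those of the other strains in markers of other cell types. In injured joints 6 of 6 cartilage and 5 of 6 synovial lining and fibroblast markers were higher against MRL/MpJ (medians of 1.32 and 1.31) and against C57BL/6 (1.03 and 1.198), while 10 of 10 and 9 of 10 muscle markers and 3 of 3 erythroid markers in both were lower. The summed synovial markers lay between 19455.8 and 30806.5 CPM in injured STR/ort joints, above 8956.3 to 14404.8 CPM in C57BL/6 and 9150.29 to 11344.7 CPM in MRL/MpJ, without overlap. The summed erythroid markers lay between 708 and 2184 CPM in STR/ort, below the other strains (2890.4 to 3780.58 CPM in C57BL/6). In uninjured joints the same lists moved the same way, with 6 of 6 cartilage, 6 of 6 bone and 5 of 6 synovial markers higher in STR/ort against each strain, 3 of 3 erythroid markers lower, and 10 of 10 muscle markers lower against MRL/MpJ and 5 of 10 against C57BL/6. The part of these cell types in the strain differences was not tested. Muscle was fitted as a covariate. At 1-week its summed level was 14382.8 to 31653 CPM in injured STR/ort joints and 44949.4 to 74984.1 CPM in injured MRL/MpJ joints. These ranges do not overlap, so that fit cannot tell muscle level from strain there.

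Smaller Angptl4 differences between strains lay near the limits of the test. The uninjured difference of STR/ort and MRL/MpJ at 1-day (0.62 ± 0.20, adjusted p = 0.00982) fell under the fold limit without MRL/MpJ replicate 3 (0.56), STR/ort replicate 1 (0.56) or STR/ort replicate 2 (0.50). Injured C57BL/6 exceeded injured MRL/MpJ joints at 1-day by 0.59 ± 0.18 (adjusted p = 0.00954), a call that ended without MRL/MpJ replicate 3 (0.54) or 5 (0.56) or C57BL/6 replicate 1 (0.51) or 4 (0.34). It ended with housekeeping scaling (0.53) and DESeq2 (0.58) as well, and the uninjured one with housekeeping scaling (0.501) and with 1 or 2 RUVg factors (adjusted p = 0.065 and 0.0673). The same pair of strains differed at 1-week by 0.65 ± 0.18 in injured joints (adjusted p = 0.0113) and by 0.70 ± 0.21 in uninjured joints (adjusted p = 0.0201). The uninjured difference ended as a call when MRL/MpJ replicate 3 was left out (adjusted p = 0.063) or replicate 4 was (adjusted p = 0.0668). With 2 RUVg factors neither was called (adjusted p = 0.136 and 0.237). Without C57BL/6 injured replicate 4 at 1-day STR/ort exceeded C57BL/6 by 0.72 in injured joints, against 0.47 ± 0.18 with it. At 2-weeks injured C57BL/6 joints were 0.55 ± 0.17 against MRL/MpJ (adjusted p = 0.0138, under the fold limit), a difference that passed it without MRL/MpJ replicate 4 (0.60) or C57BL/6 replicate 2 (0.59) or 5 (0.64).

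Apln was higher in STR/ort than in MRL/MpJ in injured joints at all 3 times. The log2 fold change was 1.01 ± 0.24 at 1-day (adjusted p = 0.000946), 1.38 ± 0.16 at 1-week (adjusted p = 3.62e-08) and 1.07 ± 0.18 at 2-weeks (adjusted p = 8.7e-06), without overlap of libraries. The 1-day value was 0.89 with the muscle covariate (adjusted p = 0.058) and 1.05 with 1 RUVg factor (adjusted p = 0.102). Against C57BL/6 the difference of STR/ort was called at 1-week (1.08 ± 0.16, adjusted p = 1.83e-06) and was 0.01 ± 0.23 and 0.06 ± 0.16 at the other times. C57BL/6 exceeded MRL/MpJ at 1-day (1.001 ± 0.24, adjusted p = 0.00145, with overlap) and at 2-weeks (1.01 ± 0.18, adjusted p = 5.33e-05).

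In uninjured joints Apln was called in 4 of 9 comparisons of strains, and each of these calls ended when a single library was left out. STR/ort exceeded MRL/MpJ by 0.90 ± 0.29 at 1-day (adjusted p = 0.0112), lost without STR/ort replicate 2 (0.61, adjusted p = 0.0764). It did so by 0.61 ± 0.23 at 1-week (adjusted p = 0.0312), lost without MRL/MpJ replicates 3 or 4 (adjusted p = 0.135 and 0.0857) or STR/ort replicates 1, 3 or 4 (adjusted p = 0.0623, 0.0625 and 0.109). STR/ort exceeded C57BL/6 by 0.69 ± 0.21 at 1-week (adjusted p = 0.0101), under the fold limit without STR/ort replicate 4 (0.58). At 1-day that difference was 0.69 ± 0.28 (adjusted p = 0.0639), called without STR/ort replicate 3 (0.84) among the libraries left out. C57BL/6 exceeded MRL/MpJ by 0.67 ± 0.22 at 2-weeks (adjusted p = 0.0245), lost without MRL/MpJ replicate 4 (adjusted p = 0.0799) or C57BL/6 replicate 4 (adjusted p = 0.138). At 2-weeks STR/ort was 0.58 ± 0.22 against MRL/MpJ (adjusted p = 0.0387, just under the fold limit), and it passed without MRL/MpJ replicates 1 (0.65) or 3 (0.66) or STR/ort replicates 3 (0.70) or 5 (0.65). The libraries overlapped in each of these Apln comparisons of uninjured joints. With 1 RUVg factor the calls of STR/ort ended, at an adjusted p of 0.158 at 1-day against MRL/MpJ, 0.398 at 1-week against MRL/MpJ and 0.23 at 1-week against C57BL/6. The same fit made a call of the 2-weeks difference of STR/ort and MRL/MpJ (0.63, adjusted p = 0.0195), as did RLE factors, housekeeping scaling, DESeq2 and filterByExpr (0.59 to 0.65), and DESeq2 called the 1-day difference from C57BL/6 (0.68, adjusted p = 0.0431).

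In injured joints Aplnr had its highest mean in C57BL/6 at 1-day and 2-weeks and in STR/ort at 1-week. At 1-day injured STR/ort joints measured 21.01, 17.96, 24.4, 21.2 and 19.02 CPM, C57BL/6 38.9, 32.2, 30.3, 37.7 and 29.2 CPM and MRL/MpJ 23.99, 24.6, 21.4, 22.7 and 20.5 CPM. STR/ort and MRL/MpJ overlapped, and all C57BL/6 libraries were above both. STR/ort was lower than C57BL/6 by a log2 fold change of -0.70 ± 0.10 (adjusted p = 5.02e-06). C57BL/6 exceeded MRL/MpJ by 0.59 ± 0.10 (adjusted p = 3.42e-05), a value at the fold limit that fell under it without MRL/MpJ replicate 3 (0.57) or 5 (0.55) or C57BL/6 replicate 1 (0.53) or 4 (0.54). It was also under the limit with RLE factors (0.58), housekeeping scaling (0.52) and DESeq2 (0.58). At 1-week injured STR/ort joints exceeded MRL/MpJ, which measured 23.9, 25.9, 27.6, 25.8 and 24.5 CPM, by 0.64 ± 0.16 (adjusted p = 0.000966). That difference was 0.50 without STR/ort replicate 1, the highest library, and 0.50 with the muscle covariate (adjusted p = 0.142), and with 1 RUVg factor 0.74 (adjusted p = 0.062). In uninjured joints the mean was highest in C57BL/6 and lowest in STR/ort at all 3 times. At 2-weeks, where uninjured STR/ort joints measured 18.3, 18.1, 12.5, 19.6 and 14.8 CPM and C57BL/6 24.2, 23.5, 30.6, 32.2 and 28.8 CPM without overlap, STR/ort was lower by -0.75 ± 0.12 (adjusted p = 2.59e-05).

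Angpt2, the Tie2 ligand, had a higher level in STR/ort joints that was called against MRL/MpJ and C57BL/6 at 1-week and against MRL/MpJ alone at 1-day. At 1-week injured STR/ort joints measured 23.2, 21.9, 22.01, 18.9 and 17.1 CPM, C57BL/6 7.93, 12.6, 9.13, 11.2 and 11.4 CPM and MRL/MpJ 10.00, 8.63, 11.4, 9.09 and 9.17 CPM. Uninjured joints measured 16.1, 17.2, 21.3 and 13.4 CPM in STR/ort, 8.54, 6.303, 8.68, 8.26 and 9.73 CPM in C57BL/6 and 8.59, 11.7, 9.07 and 8.76 CPM in MRL/MpJ. In both joints all STR/ort libraries were above all libraries of the other strains. STR/ort exceeded MRL/MpJ by 1.07 ± 0.13 in injured (adjusted p = 7.36e-08) and 0.87 ± 0.15 in uninjured joints (adjusted p = 2.76e-05). It exceeded C57BL/6 by 0.96 ± 0.13 (adjusted p = 5.37e-07) and 1.05 ± 0.14 (adjusted p = 7.69e-07). At 1-day the differences from MRL/MpJ were 1.002 ± 0.10 (adjusted p = 3.24e-09) in injured and 0.87 ± 0.11 (adjusted p = 5.7e-08) in uninjured joints. With 2 RUVg factors the uninjured difference from MRL/MpJ at 1-week was 0.98 (adjusted p = 0.079). At 1-day the differences from C57BL/6 were 0.48 ± 0.10 in injured and 0.34 ± 0.10 in uninjured joints, both under the fold limit, and at 0-day the difference was -0.02. At 2-weeks no Angpt2 difference was called. There STR/ort was 0.58 ± 0.13 against C57BL/6 in injured joints (adjusted p = 0.00145), which passed the fold limit without C57BL/6 replicate 3 (0.68) or STR/ort replicate 2 (0.63) or 4 (0.59). It was 0.56 ± 0.14 against MRL/MpJ in uninjured joints (adjusted p = 0.00206), which passed without MRL/MpJ replicate 1 (0.62) or STR/ort replicates 1 (0.60), 2 (0.60) or 5 (0.65). With housekeeping scaling these 2 differences were 0.64 (adjusted p = 0.000607) and 0.62 (adjusted p = 0.00102), both called. The first was also called with the muscle covariate (0.597) and with the compared groups only (0.587), and the second with filterByExpr (0.589).

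Esm1, the proteoglycan of sprouting cells, kept its low level in MRL/MpJ at 1-day and 1-week. Uninjured joints at 1-week measured 13.8, 11.3, 11.8 and 12.02 CPM in MRL/MpJ, 26.9, 24.4, 21.5, 28.3 and 29.9 CPM in C57BL/6 and 13.7, 17.4, 22.7 and 22.1 CPM in STR/ort. All C57BL/6 libraries were above all MRL/MpJ libraries, and STR/ort replicate 1 lay just below MRL/MpJ replicate 1. C57BL/6 exceeded MRL/MpJ by 1.102 ± 0.12 in uninjured (adjusted p = 5.26e-08) and 0.75 ± 0.11 in injured joints (adjusted p = 7.38e-06). At 1-day the values were 0.94 ± 0.12 (adjusted p = 4.14e-07) and 0.81 ± 0.13 (adjusted p = 5.85e-06). STR/ort exceeded MRL/MpJ at 1-day by 1.01 ± 0.12 in injured (adjusted p = 1.01e-07) and 0.74 ± 0.12 in uninjured joints (adjusted p = 1.09e-05), and at 1-week by 0.67 ± 0.13 in uninjured joints (adjusted p = 0.000105), which was 0.56 without STR/ort replicate 3. These differences of STR/ort from MRL/MpJ depended on the fit. With 1 RUVg factor they were 0.57 (adjusted p = 0.0365) and 0.29 (adjusted p = 0.32) at 1-day and 0.39 (adjusted p = 0.207) at 1-week, and none was called. With the muscle covariate the uninjured values were 0.48 at 1-day (adjusted p = 0.0045) and 0.54 at 1-week (adjusted p = 0.0124), both under the fold limit. In injured joints at 1-week STR/ort was 0.54 ± 0.11 against MRL/MpJ (adjusted p = 0.000158, under the fold limit). At 2-weeks no Esm1 difference between strains was called. The nearest was STR/ort against C57BL/6 in injured joints (-0.56 ± 0.15, adjusted p = 0.00484), which passed the fold limit without C57BL/6 replicates 1 (-0.62), 3 (-0.62) or 4 (-0.59) or STR/ort replicate 5 (-0.64). With the muscle covariate it was -0.62 (adjusted p = 0.000228), and that of C57BL/6 against MRL/MpJ in injured joints 0.64 (adjusted p = 0.000205), both called. In uninjured joints STR/ort and C57BL/6 differed by -0.51 ± 0.15 (adjusted p = 0.0107), and by -0.61 without STR/ort replicate 5.

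Vegfa was lower in STR/ort than in MRL/MpJ after injury, in both joints. At 1-day it measured 83.7, 93.9, 82.6, 103 and 76.4 CPM in uninjured STR/ort joints, and in uninjured MRL/MpJ joints 143 CPM or more. At 1-week the uninjured libraries were 95.5, 108, 97.4 and 101 CPM in STR/ort, 156, 184, 193, 153 and 126 CPM in C57BL/6 and 226, 209.9, 187 and 179 CPM in MRL/MpJ. The STR/ort libraries were below all libraries of the other strains at 1-week. STR/ort differed from MRL/MpJ by -0.96 ± 0.11 at 1-day (adjusted p = 1.84e-08) and -0.97 ± 0.12 at 1-week (adjusted p = 1.03e-07) in uninjured joints. In injured joints the values were -0.67 ± 0.11 (adjusted p = 1.05e-05) and -0.69 ± 0.11 (adjusted p = 2.24e-06). Against C57BL/6 the uninjured difference at 1-week was -0.68 ± 0.11 (adjusted p = 1.5e-05). C57BL/6 was below MRL/MpJ in uninjured joints at 1-day by -0.63 ± 0.11 (adjusted p = 3.03e-05), which fell under the fold limit without MRL/MpJ replicate 2 (-0.54) or C57BL/6 replicate 4 (-0.57). At 2-weeks the Vegfa differences between strains lay between -0.10 and 0.25 with overlapping libraries. These strain differences depended on fitted factors of unwanted variation and not on RLE or housekeeping scaling, which ended none of the calls. With 2 RUVg factors from housekeeping genes, the injured difference of STR/ort and MRL/MpJ at 1-week turned to 0.26 (adjusted p = 0.404), and the uninjured one was -0.03 (adjusted p = 0.959). With the muscle covariate the injured difference was -0.22 at 1-day (adjusted p = 0.124) and -0.36 at 1-week (adjusted p = 0.0703), while the uninjured one was still called, at -0.63 (adjusted p = 1.58e-06) and -0.74 (adjusted p = 0.000125). The uninjured differences of C57BL/6 from MRL/MpJ at 1-day and of STR/ort from C57BL/6 at 1-week were not called with the muscle covariate (-0.44 and -0.502) or with 1 RUVg factor (-0.37 and -0.19).

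Among the receptors and junction genes, strain differences after injury were called once each for Kdr, Flt1 and Pecam1 and not for Cdh5. Kdr was lower in uninjured STR/ort joints at 1-week, at 65.5, 46.5, 58.2 and 48.4 CPM, than in C57BL/6, at 95.03, 103, 88.8, 78.1 and 78.6 CPM, without overlap. The log2 fold change was -0.68 ± 0.10 (adjusted p = 2.15e-06), and with 1 RUVg factor it was -0.36 (adjusted p = 0.087). Against MRL/MpJ it was -0.57 ± 0.10 (adjusted p = 4.17e-05), under the fold limit but past it without MRL/MpJ replicate 3 (-0.59) or 4 (-0.62) or STR/ort replicate 1 (-0.67) or 3 (-0.61). Flt1 was lower in injured C57BL/6 joints at 1-day, at 52.3, 44.3, 40.5, 41.2 and 43.8 CPM, than in MRL/MpJ, at 65.8, 76.9, 66.3, 55.8 and 76.2 CPM. The groups did not overlap, and the log2 fold change was -0.61 ± 0.10 (adjusted p = 1.15e-05). It fell under the fold limit without MRL/MpJ replicate 2 (-0.54) or 5 (-0.57) or C57BL/6 replicate 3 (-0.56) or 4 (-0.58). It was -0.46 with 1 RUVg factor and -0.52 with the muscle covariate, and not called in either. With 1 RUVg factor Flt1 in injured STR/ort joints at 1-week went from 0.05 to 0.73 against MRL/MpJ (adjusted p = 0.00132) and from 0.19 to 0.76 against C57BL/6 (adjusted p = 0.000257), both called there. In uninjured joints at 1-day Flt1 of STR/ort was -0.50 ± 0.10 against MRL/MpJ (adjusted p = 8.57e-05), and -0.59 without STR/ort replicate 2. Pecam1 was higher in injured STR/ort than in injured MRL/MpJ joints at 1-week, where the latter measured 88.2, 82.4, 108, 86.4 and 83.7 CPM, by 0.76 ± 0.08 (adjusted p = 4.21e-09, 1.69-fold). Against C57BL/6 it was 0.56 ± 0.08 (adjusted p = 1.04e-06), which passed the fold limit without C57BL/6 replicate 2 (0.63) or STR/ort replicate 5 (0.59). With 1 RUVg factor that difference was 0.87 (adjusted p = 1.32e-06), and the uninjured difference of STR/ort and MRL/MpJ at 1-week went from 0.37 to 0.76 (adjusted p = 0.000197), both called. Cdh5 was called between no pair of strains, and its largest difference in injured joints was 0.35 ± 0.10 for C57BL/6 against MRL/MpJ at 2-weeks (adjusted p = 0.00621).

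The uninjured contralateral joints were also compared with the 0-day joints of their strain, to ask whether the far knee changed. In MRL/MpJ edgeR called 0 of the 10 genes at 1-day (0.156% of all genes) and 0 at 1-week (0%), with an unadjusted p below 0.05 for 2 and 1 and 0 calls by DESeq2. In C57BL/6 it called 0 at 1-day (0.0462%) and 0 at 1-week (5.54%), with 3 and 4 at an unadjusted p below 0.05 and 0 calls by DESeq2. In STR/ort 1 was called at 1-day (8.89%) and 2 at 1-week (12.6%). Vegfa fell in the far STR/ort joint from the 0-day level of 171, 169, 270.01 and 242 CPM to the 1-day and 1-week levels given above, without overlap. The log2 fold change was -1.298 ± 0.13 at 1-day (adjusted p = 2.05e-06, 2.46-fold lower) and -1.104 ± 0.14 at 1-week (adjusted p = 1.34e-05). Angptl4 stood at 30.96, 23.5, 23.3 and 21.6 CPM in STR/ort at 0-day and rose in the far joint by 1-week without overlap, by 1.77 ± 0.23 (adjusted p = 1.53e-05, 3.41-fold). At 1-day its log2 fold change there was 0.27 ± 0.22 (adjusted p = 0.419).

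The receptors Kdr and Flt1 and the junction gene Cdh5 were lower in the far STR/ort joint than at 0-day by less than 1.5-fold. Kdr was -0.39 at 1-day and -0.50 at 1-week, the latter -0.61 without uninjured replicate 1. Flt1 was -0.53 and -0.35, the former -0.59 without 0-day replicate 1 and -0.62 without uninjured replicate 2. Cdh5 was -0.43 and -0.32, and all 6 of these values had an adjusted p below 0.05. Angpt2 was 0.58 ± 0.13 at 1-week (adjusted p = 0.00183), which passed the fold limit without 0-day replicate 1 (0.61) or uninjured replicates 1 (0.60) or 4 (0.68). Over the 6 comparisons with 0-day in the 3 strains, log2 fold changes lay between -0.15 and 0.12 for Pecam1, -0.03 and 0.25 for Esm1, -0.75 and 0.18 for Apln and -0.49 and 0.34 for Aplnr, with 0 calls. With the compared groups only, Apln was called lower in the far C57BL/6 joint at 1-week (-0.65, adjusted p = 0.0284). In that joint 6 of 6 cartilage markers (median of the list -1.23), 6 of 6 bone markers (-0.78), 5 of 6 synovial lining and fibroblast markers (-0.91), 4 of 10 fat markers and 3 of 6 lymphatic markers were lower than at 0-day. Markers of several tissues of the joint moved with the values of the far STR/ort joint. Of the skeletal muscle markers 10 of 10 were lower than at 0-day at both times, with medians of -1.12 and -1.21. Their summed level was 31116.8 to 54172.2 CPM at 1-day and 28655.2 to 54852.5 CPM at 1-week, below the 0-day range of STR/ort given above. At 1-week 3 of 6 cartilage markers (median of the list 0.79), 3 of 6 synovial lining and fibroblast markers (0.70), 3 of 6 macrophage markers (0.65) and 3 of 6 lymphatic markers (0.74) were higher than at 0-day, and their part in these results was not tested. With the muscle covariate Vegfa was -1.04 at 1-day (adjusted p = 0.00289) and -0.81 at 1-week (adjusted p = 0.0122), both still called. With 1 RUVg factor it was -0.63 (adjusted p = 0.118) and -0.51 (adjusted p = 0.0449), and neither was called. Of the 8 PPAR-responsive lipid genes 5 were lower in the far STR/ort joint at 1-day and 3 at 1-week, and of the 12 hypoxia-responsive genes 4 were lower at each time. Of the 20 other endothelial markers 2 were lower at 1-day and 1 at 1-week, and at 1-week 1 was higher.

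Injured joints were also compared between 1-day and 1-week within each strain. In STR/ort 3 of the 10 genes were called, all higher at 1-week (13% of all genes). In MRL/MpJ edgeR called 0 (3.52%) with 6 at an unadjusted p below 0.05, and in C57BL/6 0 (4.35%) with 5, and DESeq2 called 0 in both. From the libraries given above, STR/ort rose in Angptl4 by 1.07 ± 0.19 (adjusted p = 0.000156), in Aplnr by 0.96 ± 0.17 (adjusted p = 9.34e-05) and in Apln by 0.61 ± 0.21 (adjusted p = 0.0279). The groups were apart for Angptl4 and Aplnr and overlapped for Apln. The Apln call ended without 1-day replicates 3, 4 or 5 (adjusted p = 0.0722, 0.0682 and 0.0555) or 1-week replicates 1 or 5 (adjusted p = 0.0595 and 0.0685). It ended with the muscle covariate as well (0.55, under the fold limit). Angptl4 went the other way in the other strains, with -0.56 ± 0.11 in MRL/MpJ (adjusted p = 0.00104, under the fold limit) and -0.51 ± 0.19 in C57BL/6 (adjusted p = 0.071). The MRL/MpJ value passed without 1-day replicates 3 (-0.61) or 5 (-0.59) or 1-week replicates 2 (-0.59) or 4 (-0.61). The C57BL/6 value passed without 1-day replicates 2 (-0.66) or 5 (-0.62), and so did Apln of C57BL/6, which was -0.48 ± 0.20 with all libraries, without 1-day replicates 2 (-0.59) or 3 (-0.60). The other 7 genes were not called, with log2 fold changes over the 3 strains of 0.35 to 0.42 for Vegfa, 0.16 to 0.34 for Kdr, -0.32 to 0.14 for Flt1, -0.08 to 0.44 for Pecam1, -0.16 to 0.39 for Cdh5, -0.21 to 0.28 for Angpt2 and -0.26 to 0.198 for Esm1. Whether the time course differed between strains was not tested.

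The level of Vegfa went with that of muscle genes in the joints. Its log2 CPM correlated with the summed level of 10 muscle markers at r = 0.623 over the deviations of 100 libraries from their group means and at r = 0.904 over the 21 group means. Among the other genes the correlation over group means was 0.483 for Kdr, 0.401 for Flt1, 0.245 for Cdh5, -0.212 for Aplnr and -0.268 for Pecam1. It was -0.456 for Apln, -0.611 for Esm1, -0.794 for Angptl4 and -0.822 for Angpt2. Within groups Flt1 (0.528), Cdh5 (0.482), Kdr (0.389) and Pecam1 (0.357) went with muscle, and Apln (-0.058), Aplnr (-0.007), Angpt2 (0.031) and Angptl4 (-0.104) hardly did, while Esm1 was at -0.377. These are descriptions over points that share strains, times and library scaling. With the muscle covariate the injury difference of Vegfa at 1-day was -0.38 in MRL/MpJ (adjusted p = 0.00199), -0.16 in C57BL/6 and 0.03 in STR/ort.

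**Figure D3:**
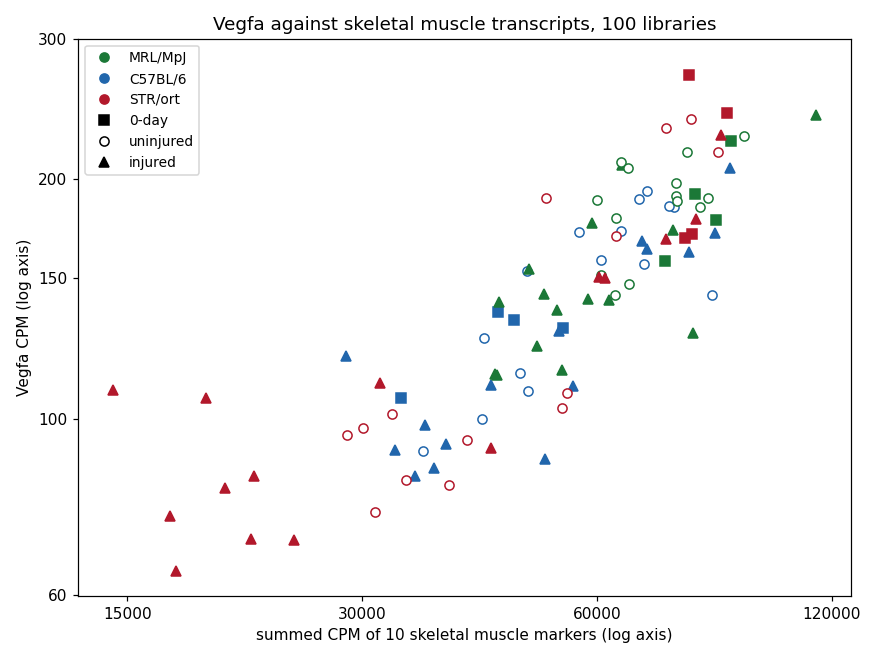
Vegfa (CPM, vertical log axis) against the summed level of 10 skeletal muscle markers (CPM, horizontal log axis) in each of the 100 libraries, coloured by strain. Vegfa is higher where muscle is higher (r = 0.904 over the 21 group means), and the injured STR/ort joints at 1-day and 1-week lie at the low end of both.

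The genes formed loose groups among themselves. Within groups of libraries the highest correlations were those of Vegfa with Flt1 (0.656), Kdr with Flt1 (0.642), Vegfa with Kdr (0.602), Flt1 with Cdh5 (0.602) and Pecam1 with Cdh5 (0.576), each over 100 libraries. Esm1 was negatively correlated with all 9 others (-0.15 to -0.51). Over the 21 group means Pecam1 went with Apln (0.832), Apln with Angptl4 (0.747) and Angptl4 with Angpt2 (0.72), while Vegfa ran against Angpt2 (-0.741). The summed level of the 20 other endothelial markers followed Pecam1 (0.876) and Cdh5 (0.705) over the group means, and much less within groups (0.162 and 0.218). All of these points share libraries and scaling, and the group means share strains and times.

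**Figure D4:**
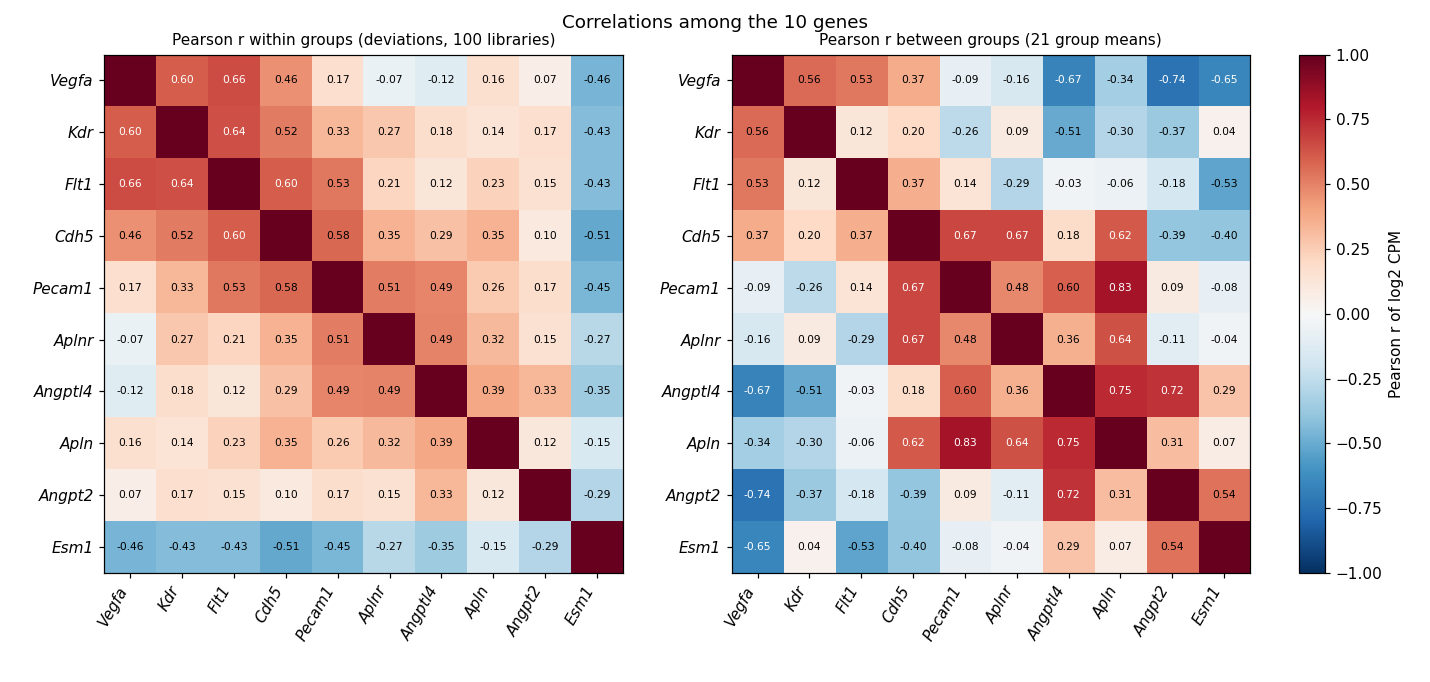
Pearson correlations of log2 CPM between the 10 genes, over deviations from group means in 100 libraries (left) and over the 21 group means (right), on a colour scale from -1 to 1. Vegfa, Kdr and Flt1 go together within groups (0.602 to 0.656), and Esm1 runs against all 9 others there.

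Among all genes, those most like each of the 10 over the 21 group means were Osmr for Angptl4 (r = 0.968), a receptor subunit of the IL-6 family, Pptc7 for Vegfa (0.967), Stx6 for Angpt2 (0.964), Tmem68 for Esm1 (0.953), Esam for Pecam1 (0.948), an endothelial adhesion molecule, Fscn1 for Apln (0.945), Arfgap1 for Aplnr (0.925), Adcy4 for Cdh5 (0.858), Nr4a3 for Flt1 (0.81) and Zfp672 for Kdr (0.783). Second to Vegfa was Egln1 (0.961), an oxygen-sensing enzyme. These likenesses depended on the groups used: of the 30 genes named as the 3 most alike, 4 were named again when only the 15 groups of the first batch entered, among them Osmr for Angptl4 (0.972).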

How the data were processed

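RNA-seq data of 100 mouse knee joint libraries were used. The authors deposited whole-number counts per gene without normalization, made from TruSeq poly(A) libraries by alignment to mm10 with TopHat2 (2.0.11) and counting with featureCounts, as the submitters' processing notes and the study's methods give it. Whether counting used strand is not given in the sources used here. Of 17313 listed genes, 3 were repeats and were left out. A minimum of 2 counts in 5 libraries removed 0 genes.

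Genes were tested with the edgeR (4.0.16, R 4.3.3) quasi-likelihood test with TMM factors and Benjamini-Hochberg adjustment over all 17310 genes. A call needed an adjusted p below 0.05 and a fold change above 1.5. Each time point was fitted once with 1 mean for every strain and joint, and each strain was fitted once over 0-day, 1-day and 1-week. CPM were scaled by TMM factors estimated over the 100 libraries together, with a prior count of 2 before taking log2. The median total was 10582592 counts per library, TMM factors ranged from 0.876 to 1.095, and low genes such as Apln are the least precise. Of 190 pairs of libraries within groups, 0 were identical.

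The 10 genes and the gene lists were chosen with earlier results of these data known. All 10 genes were tested in every comparison, and those not called are given by counts or ranges where not by name. From each list the text gives counts and names called genes with the largest changes in injury comparisons, and for likeness the genes with the highest correlation. Markers of other cell types in the joint were followed as lists.

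The alternatives were RLE factors, scaling by housekeeping genes, RUVg with 1 or 2 factors, DESeq2 (1.42.0), other filters, the compared groups only, a replicate block, each library left out, CPM without TMM, and, added after the data were seen, the summed muscle marker level as a covariate. The study itself normalized with RUVseq from housekeeping genes, so among these the RUVg fits are the nearest to its own processing. The replicate numbers pair the joints at 2-weeks, where the labels name 1 animal for both, although the correlation of deviations there had a median of -0.065 in MRL/MpJ, 0.145 in C57BL/6 and 0.241 in STR/ort. At 1-day and 1-week the joints share only a number, and these correlations cannot tell whether it pairs them. They were 0.102 to 0.231 in STR/ort at 1-week and -0.022 to 0.269 in C57BL/6 at that time. A listed gene is not reported here.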

Additional observations from a re-analysis of the deposited data

Results flagged for a closer look

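The 10 genes in the 21 groups gave 210 sets of values, which share libraries. In 13 of them 1 library stood apart from the others by Dixon's criterion, which chance alone does in about 1 in 20 sets. The library was the highest in 8 of the 13. These were Vegfa in injured C57BL/6 joints at 2-weeks (207 CPM), Kdr (85.5 CPM) and Cdh5 (111 CPM) in injured MRL/MpJ joints at 2-weeks, Flt1 in uninjured MRL/MpJ joints at 1-day (75.8 CPM), Pecam1 in STR/ort at 0-day (106 CPM) and in injured MRL/MpJ joints at 1-week (108 CPM), Angpt2 in uninjured MRL/MpJ joints at 1-week (11.7 CPM) and Esm1 in injured STR/ort joints at 1-week (23.97 CPM). The library was the lowest for Flt1 in uninjured STR/ort joints at 1-week (43.6 CPM), Aplnr in MRL/MpJ at 0-day (19.7 CPM) and in uninjured MRL/MpJ joints at 1-day (16.2 CPM), Angpt2 in uninjured MRL/MpJ joints at 2-weeks (4.28 CPM) and Esm1 in injured C57BL/6 joints at 1-week (20.8 CPM). The high Kdr and Cdh5 values came from 1 library, injured MRL/MpJ replicate 4 at 2-weeks, which also had the highest summed muscle marker level of all libraries (114463 CPM).

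The injury response differed between strains, by the interaction test of edgeR, for Angptl4 at 2-weeks (1.28 on the log2 scale higher in STR/ort than in MRL/MpJ, adjusted p = 0.0139) and for Cdh5 at 1-week (0.48 higher in STR/ort than in MRL/MpJ, adjusted p = 0.0402, under the 1.5-fold limit).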

How the results depend on the processing

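Over 480 tests of the 10 genes, RLE factors ended 2 calls and added 1, scaling by housekeeping genes ended 8 and added 6, RUVg with 1 factor ended 20 and added 8, and with 2 factors ended 24 and added 8. DESeq2 ended 3 and added 3, the compared groups only 2 and 3, the muscle covariate 17 and 8, filterByExpr 0 and 2, and no filter 0 and 0. Leaving out each library in turn left 5342 refitted tests on the same side, ended a call in 61, added one in 57 and reversed 0 called values. A single called value changed sign in all of these alternatives: Vegfa in injured STR/ort against MRL/MpJ joints at 1-week went from -0.69 to 0.26 with 2 RUVg factors.

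Called tests for strains at 0-day were 7, and 4 with the muscle covariate (6 to 8 without 1 library). For uninjured joints between strains they were 22, against 14 and 11 with 1 and 2 RUVg factors (20 to 25 without 1 library). For the contralateral joint against 0-day they were 3, against 1 with 1 or 2 RUVg factors and 5 with the compared groups only (3 to 5 without 1 library). For differences in injury response the count was 1, against 2 with RUVg of 1 or 2 factors, with DESeq2 and with the muscle covariate, and 4 with the replicate block (1 to 3 without 1 library). Counts without 1 library were 19 to 23 for injury, 23 to 28 for injured joints between strains and 2 to 5 for injured joints over time.

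The replicate block was fitted to 180 tests, ended 2 calls and added 4. These 6 changes stand beside their results, and no other call changed.

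At 0-day 6 of the 10 genes had their highest mean in STR/ort, 3 without TMM and 5 with housekeeping scaling. The likeness lists kept 4 of 30 genes in the first batch alone. Housekeeping scaling shifted the log2 fold changes of the 10 genes, with a median shift per comparison of at most 0.182 in size. Apln, with 11 counts at the least, is limited by depth, and intervals cover the spread between these libraries.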
